A study of Mus musculus with 48 samples.

Results

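Enhancers are stretches of DNA outside promoters that raise the transcription of genes, often of genes some distance away, and nucleosomes at active ones carry acetylated lysine 27 of histone H3 (H3K27ac). Trimethylated lysine 4 of histone H3 (H3K4me3) marks nucleosomes at the start sites of transcribed genes. In the cerebellum most neurons are granule neurons, so a map of marks from whole tissue weighs that cell type heavily. The enhancer regions described here are those of a list of H3K27ac-bound enhancers at postnatal day 22 (P22) in mouse that lie within 10 kb of a region in a list of H3K4me3-bound start sites at the same age. A gap is the number of bases between the nearest edges of 2 regions. By that rule 3278 of 26183 enhancer regions were near a start site region, which is 12.52% (exact Clopper-Pearson 95% interval 12.1 to 12.9%), and the other 22905 lay farther away.

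The series holds 48 samples of mouse cerebellum, labelled as wild type or as a conditional knockout of the chromatin remodeler gene Chd4. Of these, 20 are chromatin immunoprecipitation or chromatin input samples at day 22, 16 are messenger RNA samples at days 27 to 28, of which 8 compare wild-type mice trained on a rotarod with mice at rest, and 12 are Sync-TRAP samples at day 12. The chromatin antibodies in the sample labels are against Chd4, H2A.z, acetylated H2A.z, H3 and H3K27me3. Which libraries and which genotype lie behind the H3K27ac and H3K4me3 lists is not given in the sources used here, so no comparison between genotypes was made.

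Both lists hold positions alone, on build mm9, with no signal, no strand and no gene name. Every one of the 26183 enhancer regions and 15127 start site regions was 1000 bp long, 500 bp on each side of a centre. All enhancer centres fell on multiples of 100 bp, whereas 163 start site centres did. Neither list repeated a line. No enhancer region overlapped a start site region, so the near enhancer regions are apart from the listed start sites, although whether they overlap start sites missing from the list could not be seen. Start site regions overlapped one another often, and merging those that overlapped gave 12685 blocks, of which 2071 (16.3%) held 2 or more regions. Intervals below are at 95% and cover counting error only, since the depth behind the lists is unknown and there are no replicates. Regions on a chromosome are not independent of one another, and differences between near and far enhancer regions are given as descriptions without a test.

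The first question was where, inside the 10 kb, the near enhancer regions lay. They were scarce beside the start site regions and common from about 5 kb outward. Their median gap was 6.01 kb, with 25% at 3.97 kb or less and 25% at 7.92 kb or more. Only 16 of the 3278 (0.488%, interval 0.279 to 0.791%) had a gap under 1 kb and 190 (5.80%) had one under 2 kb, while 2059 (62.8%) lay at 5 kb or more. How the list set enhancers apart from promoters is not given, and the part of such a rule in the low counts at short gaps was not tested. The smallest gap was 451 bp, at chr13:94075401-94076400 beside the start site region chr13:94073950-94074949. Next came chr14:58418401-58419400 with 640 bp and chr1:140514101-140515100 with 673 bp. These 3 regions had their nearest enhancer neighbours at 13.6, 65.8 and 652.8 kb. All 3 were therefore beyond 12500 bp from any other enhancer region.

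Less sequence lies at larger gaps, since neighbouring start sites come into reach, so the counts were divided by the room available. Room is the number of positions that a 1000 bp region could take at a given gap between the first and last region of a chromosome, in Mb. Positions that overlap a start site region are left out. Sequence where reads cannot be placed was not taken out of the room, and its part in the densities was not tested. Per Mb of room, the density of enhancer regions went from 0.0808 (interval 0.00205 to 0.450, 1 region) at gaps under 0.5 kb and 1.22 (0.684 to 2.02, 15 regions) at 0.5 to 1 kb to 7.19 (6.16 to 8.34, 174 regions) at 1 to 2 kb. Density was 12.0 at 2 to 3 kb, 15.5 at 3 to 4 kb and 17.0 at 4 to 5 kb. From 5 to 10 kb it stayed between 18.6 and 21.4 per Mb, with the highest value at 7 to 8 kb (455 regions, interval 19.5 to 23.5). The intervals of the 5 classes from 5 to 10 kb all overlapped, so no peak stood out among them. The low densities at short gaps carry the same limit as the counts, since the rule that set enhancers apart from promoters is not given.

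The 10 kb limit cut through this plateau. Enhancer regions at 10 to 15 kb had 19.2 per Mb (18.3 to 20.1) and those at 9 to 10 kb had 19.3 (17.4 to 21.3). Farther out density was lower, at 16.9 at 30 to 50 kb, 10.2 at 100 to 200 kb and 3.71 beyond 200 kb. Over the whole 10 kb, near enhancer regions reached 14.6 per Mb (14.1 to 15.1) against 9.89 (9.76 to 10.02) for the far ones, a ratio of 1.48. The far value averages unlike classes. Each class from 10 to 50 kb was denser than the near total, at 16.9 to 19.2 per Mb, and the class beyond 200 kb had 3.71. Sequence within 10 kb was 8.84% of the room. With a limit of 5 kb, which also counts the regions at 5 to 10 kb as far, the ratio was 0.999. The classes under 2 kb were below the far density of 9.89 and those from 2 kb to 10 kb were above it. The last members inside the limit were chr15:25562801-25563800, chr11:101856601-101857600 and chr15:85554501-85555500, with gaps of 9996, 9995 and 9993 bp. The first regions outside it were chr6:86645001-86646000 and chr10:80587501-80588500, each with 10015 bp, and chr4:53463801-53464800 with 10016 bp.

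**Figure D1:**
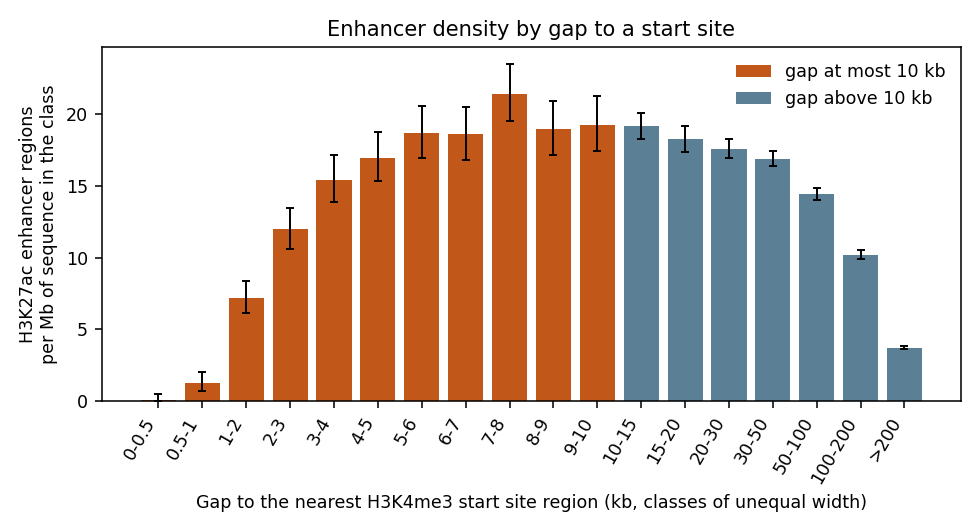
Enhancer regions per Mb of available sequence (vertical axis) by gap to the nearest start site region in kb (horizontal axis, classes of unequal width), with bars for the density and lines for exact Poisson 95% intervals. Density climbs from 0.0808 per Mb under 0.5 kb to between 18.6 and 21.4 from 5 to 10 kb and falls to 3.71 beyond 200 kb. The rule that set listed enhancers apart from promoters is not given.

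The lists carry no strand, so upstream and downstream could not be told apart, and sides are given by coordinate. The start site region lay at higher coordinates than the enhancer for 1666 near regions (50.8%, interval 49.1 to 52.5%) and at lower coordinates for 1612 (49.2%). The sides were thus near equal, and the interval holds an even split. On the opposite side of a near enhancer region the next start site region had a median gap of 66.0 kb. That side is the more distant by definition, and no reference value was computed for it. Only 183 near regions (5.58%, interval 4.82 to 6.42%) had a start site region within 10 kb on both sides.

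Short spaces between start sites held few enhancers. Of 207 spaces of 1 to 3 kb between successive blocks, none held an enhancer region (exact interval up to 1.77%), and of 351 spaces of 3 to 6 kb, 3 did (0.855%). The share with an enhancer was 8.28% of 628 spaces of 6 to 11 kb and 21.1% (interval 18.8 to 23.5%) of 1199 spaces of 11 to 21 kb. Among 2621 spaces of 21 to 50 kb it was 37.0%, and among 4940 spaces of at least 100 kb it was 69.9%. Longer spaces also offer more room, and these shares are not corrected for it. Nor are they corrected for any rule of the list that set enhancers apart from promoters.

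Seen from the start sites, most had no listed enhancer close by. Of 15127 start site regions, 3403 (22.5%, interval 21.8 to 23.2%) had an enhancer region within 10 kb. By blocks it was 2897 of 12685 (22.8%), of which 2278 had 1 enhancer region, 546 had 2, 64 had 3 and 9 had 4. None had more than 4. Among the 619 blocks with at least 2, enhancer regions lay on both sides in 328 (53.0%, interval 49.0 to 57.0%). Blocks of 1 start site region and blocks of overlapping regions had an enhancer within 10 kb about equally often, in 23.1% of 10614 (interval 22.3 to 23.9%) and 21.3% of 2071 (19.6 to 23.2%).

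Single start site regions with 4 enhancer regions numbered 9 as well, and the first 3 by position are described. The region chr1:137063759-137064758 had 3 enhancer regions at lower and 1 at higher coordinates, with gaps from 1142 to 9858 bp. At chr1:174270841-174271840 there were 2 on each side, with gaps from 1660 to 8160 bp. At chr4:154864970-154865969 there were again 2 on each side, from 1669 to 9931 bp. In 7 of the 9 the enhancers were split evenly between the sides.

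Spacing among the enhancer regions themselves was measured next, because neighbouring acetylated elements often form clusters. Near enhancer regions had fewer close neighbours than far ones. The nearest other enhancer region, of either kind, lay at a median gap of 11.8 kb from a near region and 7.70 kb from a far one. Among near regions 8.94% (interval 7.98 to 9.97%) had a neighbour within 2 kb, 26.9% (25.4 to 28.4%) within 5 kb and 72.7% (71.1 to 74.2%) within 25 kb. For far regions these shares were 10.7% (10.3 to 11.1%), 35.1% (34.5 to 35.7%) and 78.1% (77.5 to 78.6%). At long gaps the order against all far regions turned: 92.3% of near and 91.3% of far regions had a neighbour within 75 kb. It turned back by 1000 kb, with 99.76 and 99.80%. The 95th percentiles of the gap were 110.1 and 129.3 kb. Regions at 10 to 20 kb from a start site stayed above the near ones, with 93.9% within 75 kb and a 95th percentile of 89.6 kb. Overlap with another enhancer region was rare, at 6 near and 18 far regions. The median was larger for near regions on each of the 20 chromosomes with enhancer regions, from 0.3 kb on chromosomes 14 and X to 8.90 kb on chromosome 19.

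The larger median was not seen in the next class outward. Enhancer regions at 10 to 20 kb from a start site region (3377 regions) had a median neighbour gap of 7.20 kb, close to that of all far regions. Within the near regions the median went from 16.9 kb at gaps under 2 kb (190 regions) to 12.3 kb at 2 to 5 kb (1029 regions) and 11.3 kb at 5 to 10 kb (2059 regions). Beyond 200 kb it was 10.9 kb again (3682 regions).

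**Figure D2:**
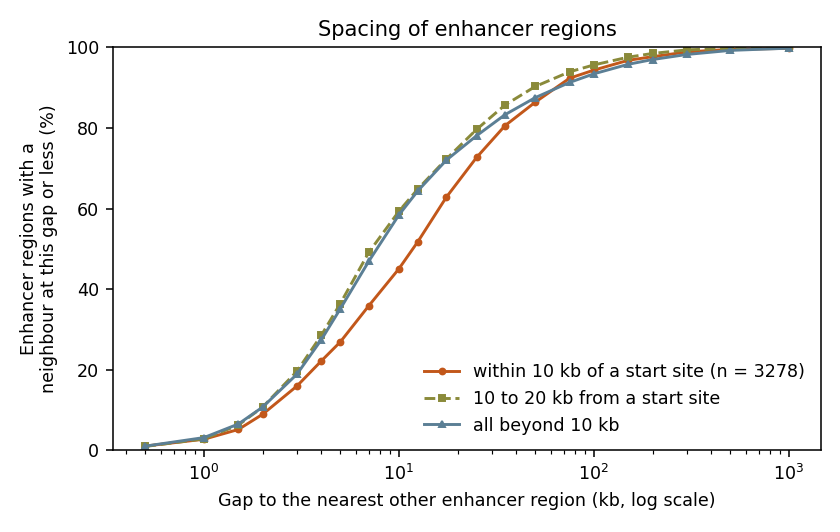
Share of enhancer regions in percent (vertical axis) with another enhancer region at a given gap or less (horizontal axis, kb, log scale), for regions within 10 kb of a start site, at 10 to 20 kb and for all beyond 10 kb. The curve of the near regions runs below the other curves between 2 and 25 kb, and is at 51.8% at 12500 bp where that of the far regions is at 64.4%.

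Neighbours were also unevenly placed around a near enhancer region. On the side away from its start site, 1383 near regions (42.2%, interval 40.5 to 43.9%) had another enhancer region within 12500 bp. On the side towards the start site 599 (18.3%, interval 17.0 to 19.6%) did. The median gaps on these sides were 18.0 and 32.8 kb. The side towards the start site contains the start site region and the sequence beside it, where few enhancers are listed. Its part in the larger neighbour gaps of near regions was not tested.

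Enhancer regions were then joined into chains wherever the gap to the next was at most 12500 bp, a distance commonly used to stitch enhancers into large clusters. Being in a chain of 2 or more is the same as having a neighbour within 12500 bp, so this share restates the spacing above. Of the near regions 1697 (51.8%, interval 50.04 to 53.5%) were in a chain of 2 or more and 1581 stood alone. Of the far regions 64.4% (63.8 to 65.0%) were in a chain. Long chains differed more, since 332 near regions (10.1%) and 24.3% of far regions were in chains of 5 or more, and 54 near regions (1.65%) and 7.40% of far regions in chains of 10 or more. Low shares were not particular to near regions: of those at 10 to 20 kb, 17.2% were in chains of 5 or more and 3.26% in chains of 10 or more. Beyond 200 kb, 53.2% (51.6 to 54.8%) were in a chain and 15.5% in chains of 5 or more. The chain share of near regions was below that of far regions on 19 of 20 chromosomes, and chromosome 14 was the exception, with 58.7 and 58.6%.

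**Figure D3:**
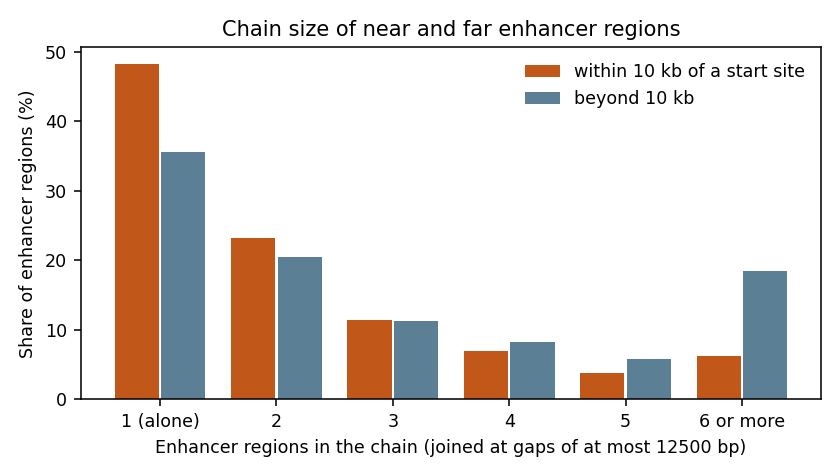
Share of enhancer regions in percent (vertical axis) by the number of enhancer regions in their chain (horizontal axis), for near and far regions. Of near regions 48.2% stand alone and 6.28% are in chains of 6 or more, where the far regions have 35.6 and 18.5%.

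Most chains that reached a start site also held far enhancer regions. The 1697 near regions in chains belonged to 1142 chains, of which 888 mixed near and far regions and 254 held near regions only. The mixed chains held 1131 near and 2263 far regions. The median span of the 1142 chains was 12.7 kb, and that of the 3910 chains of 2 or more without a near region was 11.4 kb. A chain with more members has more chances to hold a near region, so the 2 spans are not a like comparison. Far regions are 22905 of the 26183 on the list, so a mixed chain is also the more likely kind. A start site region lay inside the span of 132 of the 1142 chains (11.6%, interval 9.76 to 13.6%). Counting single regions too, 2263 chains had 1 near region, 385 had 2, 60 had 3, 12 had 4, 1 had 5 and 2 had 6.

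The 2 chains with 6 near enhancer regions differed in shape. At chr1:137047601-137066900, over 19.3 kb, all 6 enhancer regions were near, with gaps from 1.14 to 8.99 kb. They fell around the start site regions chr1:137042911-137043910 and chr1:137063759-137064758. Of the 6, 5 lay between these start site regions and 1 lay beyond the latter. The chain chr11:53262901-53320600 was 57.7 kb long with 10 enhancer regions. Its first 6 lay around 2 start site regions inside the chain, at gaps of 1903 to 8997 bp, and the last 4 lay past the 10 kb limit, at gaps of 11303, 15603, 17937 and 12137 bp in order of position.

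A chain with 5 near regions stood at chr10:80146001-80172000, over 26.0 kb, with 3 start site regions within 10 kb, 2 of them overlapping. Among the 12 chains with 4 near regions, the shortest was chr15:41270401-41285400, over 15.0 kb. It held 2 enhancer regions on each side of the start site region chr15:41278528-41279527, at gaps of 7127, 2727, 3573 and 4873 bp in order of position. At chr9:95451101-95467700, over 16.6 kb, 4 enhancer regions lay around chr9:95459736-95460735 at gaps of 7635, 3835, 1365 and 5965 bp. The longest chain by count with any near member was chr1:154809001-154939200, with 22 enhancer regions over 130.2 kb, of which 2 were near.

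**Figure D4:**
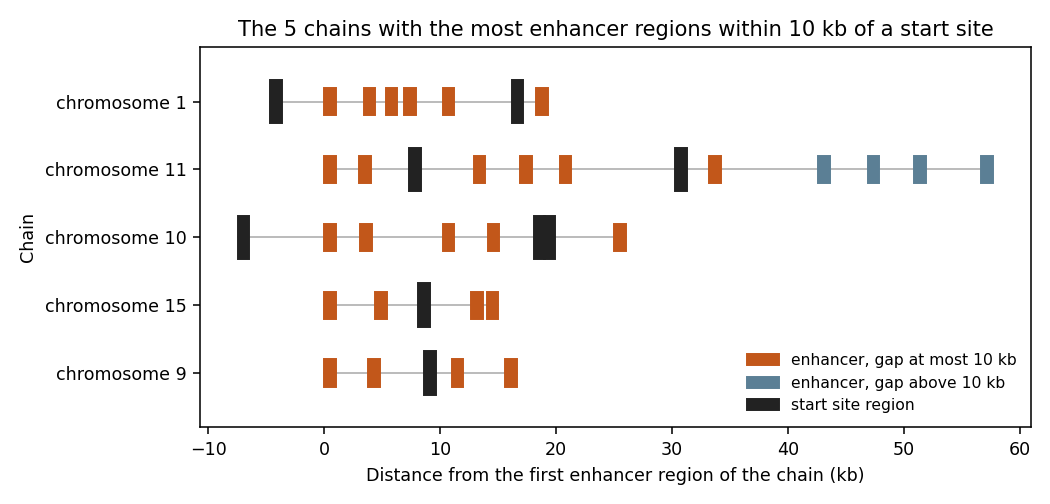
Maps to scale of the 5 chains with the most near enhancer regions, as distance in kb from the first enhancer region of each chain (horizontal axis), with 1 row per chain named by chromosome. Orange boxes are near enhancer regions, blue boxes far ones and tall black boxes start site regions. The chain on chromosome 11 alone holds far enhancer regions, 4 in number, among these 5.

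Most near enhancer regions had no other near region close by. The nearest other near region was at a median gap of 37.7 kb, and 25% had one at 9.50 kb or less and 25% had none closer than 172.4 kb. Within 12500 bp, 980 near regions (29.9%) had another near region, and within 100 kb 2178 (66.4%) did. For 1391 near regions (42.4%, interval 40.7 to 44.1%) the nearest enhancer region of all was itself near. That held for 29.1% of the regions at 10 to 20 kb and 7.11% of all far regions, where near regions make up 12.52% of the list. Near status is set by position, so regions close to each other tend to share it by definition. The 12.52% is therefore not an expected value for these shares. The longest stretch without a near enhancer region was chrX:103122401-131225300, 28.1 Mb with 39 start site regions and 3 far enhancer regions inside. On chr1:95592401-120296000, 24.7 Mb, there were 30 start site and 59 far enhancer regions. On chr14:79887501-103476900, 23.6 Mb, there were 22 and 64.

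In 2583 tiles of 1 Mb, near enhancer regions numbered 1.27 per tile on average with a variance 4.11 times the mean. Far regions numbered 8.87 per tile with a variance 13.1 times the mean, and start site regions 5.85 with 8.93 times. These ratios cannot be ranked against each other, because such a ratio depends on the mean number per tile. Of the tiles, 1469 (56.9%) held no near region, and neither did 978 of the 2092 tiles (46.7%) with a start site region. The 259 tiles with the most near regions held 1772 of them (54.1%). The 259 tiles with the most far regions held 38.4% of the far regions, a share that cannot be set against it directly because far regions are more numerous per tile. Near counts followed start site counts over tiles (Pearson r = 0.74, Spearman rho = 0.70, n = 2583) more closely than far counts (r = 0.44, rho = 0.60). This is a description: a near region needs a start site beside it by definition, and tiles of a chromosome are not independent. The tiles with most near regions adjoined each other on chromosome 10, with 22 at chr10:79000001-80000000 and 20 at chr10:80000001-81000000, beside 51 and 52 start site regions. They were picked after their counts were seen.

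By chromosome, near enhancer regions were found on all 19 autosomes and X. Chromosome 11 had the most, 310, and X the fewest, 61. As a share of the enhancer regions of a chromosome they ranged from 9.34% on chromosome 18 (96 of 1028, interval 7.63 to 11.3%) to 17.0% on chromosome 7 (259 of 1523, interval 15.2 to 18.99%). Chromosomes 11 and X came next after 7, with 16.6% (14.9 to 18.4%) and 16.2% (12.6 to 20.3%), and the intervals of these 3 overlapped. At the low end chromosomes 1, 13, 3 and 16 had 9.43, 9.49, 9.66 and 10.02%, within the interval of chromosome 18. Chromosomes 12, 6, 14 and 9 were within it too, with 10.5, 10.8, 10.99 and 11.2%.

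**Figure D5:**
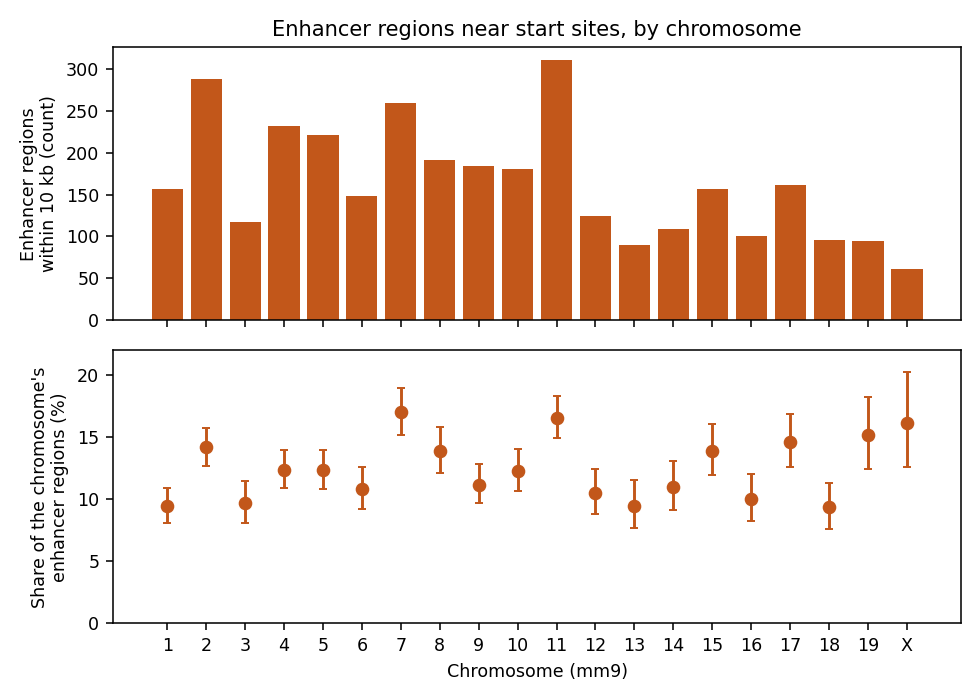
Near enhancer regions by chromosome of build mm9 (horizontal axis): their count (upper panel) and their share of the chromosome's enhancer regions in percent with exact 95% intervals (lower panel). Counts run from 61 on X to 310 on chromosome 11, and shares from 9.34% on chromosome 18 to 17.0% on chromosome 7.

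Chromosomes rich in start sites had the larger shares. Over the 19 autosomes the share of near enhancer regions followed the number of start site regions per Mb with r = 0.85 and rho = 0.85, and with X included (20 chromosomes) r was 0.61 and rho 0.64. Start sites enter both measures, so this too is a description. Chromosome 11 had 10.2 start site regions per Mb and X had 3.36. Per Mb of room within 10 kb, near density was highest on chromosome 11 (18.2) and lowest on X (7.17), and on autosomes it was lowest on chromosome 13 (9.88). It exceeded the density averaged over all far sequence on all 20 chromosomes.

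X combined few enhancers with a high near share. It held 377 enhancer regions, 2.34 per Mb, where the autosomes had 7.85 to 15.7 per Mb. Its far density was 2.09 per Mb of room, against 7.71 on chromosome 3, the lowest of the autosomes. An enhancer region lay within 10 kb of 11.6% of the start site blocks of X, and of 16.4 to 28.5% of those of the autosomes. Median near gaps varied little, from 5.02 kb on X to 6.53 kb on chromosome 11.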

How the data were processed

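The geometry of the 2 region lists was computed from the deposited positions. The authors' deposited lists give chromosome, start and end as positions (no score or signal) on build mm9, per the submitters' processing notes, which name Bowtie, SICER, bedtools and edgeR without versions or roles. No source used here states how peaks were called, whether samples were pooled or how enhancers were told from promoters. All 4 deposited gene tables have no positions and were not used. The reference annotation and promoter sequences belong to build GRCm38, so no region was assigned a gene and no sequence is printed.

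Gaps, chains, tiles of 1 Mb and room were computed in Python 3.11.15 with numpy 2.4.6, pandas 2.3.3 and scipy 1.17.1. Coordinates are printed from 1. The functions were tested on simulated lists against direct answers, and bedtools 2.31.1 gave the same 3278 near regions. Shares have exact Clopper-Pearson intervals, densities exact Poisson intervals and medians order-statistic intervals, at 95%. Named regions follow a fixed rule: the 5 chains with most near regions (shorter first), the first 3 start site regions with most enhancers and the 3 smallest gaps. The rule also names the 3 gaps nearest the limit on each side, the 3 longest stretches without a near region and the extreme chromosomes. Outside this rule, the longest chain with a near member and the tiles with most near regions are named too. The members, lists and measures were chosen with earlier results of these data known. Alternatives were limits of 5 and 20 kb, gaps between centres, merged regions, repeated lines kept, autosomes only, and chains joined at 5 and 25 kb.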

Additional observations from a re-analysis of the deposited data

How the results depend on the processing

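Keeping repeated lines could change nothing, since there were none. Over the other 8 alternatives, 47 of 82 recomputed values of the 13 results stayed inside the 95% interval of the reported one. Merging overlapping enhancer regions or overlapping start site regions moved none of 13 each out of it, and autosomes alone moved 1, the far density, to 10.4 per Mb. Merging start site regions could change only the share of them with an enhancer (22.8% in place of 22.5%). Merging enhancer regions left 3277 near regions in place of 3278. The 13 values of each merging are counted in the 47, although they could hardly move. Near regions had the lower chain share under all 8 and the larger median neighbour gap under the 6 that keep the joining gap. Merging start site regions is counted in both, although it could change neither. At the 20 kb limit the chain shares differed by -5.91 points (near minus far) in place of -12.6, and the median gaps by 1.5 kb in place of 4.1 kb. The higher density of near regions than of all far regions together was absent at the 5 kb limit.

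At the 5 kb limit 4.66% of enhancer regions were near, with a median gap of 3.42 kb, 2.05% between start sites on both sides, densities of 10.3 near and 10.3 far per Mb, a near neighbour gap of 12.6 kb and chain shares of 49.8% near and 63.4% far. Of start site regions 9.19% had an enhancer, and chromosome shares ran from 3.28% (chromosome 9) to 7.96% (X). At the 20 kb limit these were 25.4%, 10.1 kb, 11.7%, 16.4 and 9.14 per Mb, 9.30 kb near (7.80 kb far), 58.4% near and 64.3% far in chains, 38.2% of start site regions, and 18.7% (chromosome 18) to 34.0% (chromosome 7). Between centres, 11.0% were near, with a median distance of 6.53 kb, neighbour distances of 13.0 kb near and 8.70 kb far, chain shares of 48.6 and 62.2%, 20.2% of start site regions, and chromosome shares from 7.59% (chromosome 13) to 14.9% (chromosome 7). Chains joined at 5 kb held 26.9% of near and 35.1% of far regions, and at 25 kb 72.7 and 78.1%. These are the shares with a neighbour within those gaps, already given. The median gap, the near share and the share of start site regions with an enhancer move with the limit by construction. Chain shares move with the joining gap in the same way. All regions are 1000 bp long, so the centre distance of regions that do not overlap is their gap plus 1000 bp. Counting between centres therefore tightens the limit and the joining gap and lengthens neighbour distances. For the other shifts the cause was not tested.

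No paired analysis was possible because the lists hold no samples. Without depth, peak heights or replicates, the precision of a region's position and presence cannot be given.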
